A study of Mus musculus with 8 samples.

Results

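The 35 genes described here encode the machinery that copies DNA and the enzymes that supply it with deoxynucleotides: 4 origin licensing genes (Orc1, Orc6, Cdc6, Cdt1), the 6 subunits of the MCM2-7 helicase, 6 genes of helicase activation (Mcm10, Cdc45, Gins1 to Gins4), 6 genes of the sliding clamp and its loader (Pcna, Rfc1 to Rfc5), 7 polymerase and primase subunits, 2 enzymes of Okazaki fragment maturation (Fen1, Lig1) and 4 enzymes of nucleotide supply (Rrm1, Rrm2, Tyms, Tk1). They were chosen by name and function, and 35 of 35 were found among the 52636 gene identifiers counted, by matching identifiers with the version dropped to gene symbols. The libraries were RNAseq of S0 cells, sorted from the fetal liver of E12.5 embryos at midgestation. The paper states, after an earlier study, that most S0 cells are erythroid precursors. Transcripts of other cell types, such as the hepatoblast Afp and the granulocyte Mpo, were also abundant in these libraries. All mice were on a C57BL/6J background. The 4 wild-type (WT) libraries carried both genes intact, and the 4 double knockout (DKO) libraries came from embryos without functional Vps13a and Vps13c, which encode bridge-like lipid transfer proteins. Both deletions were present in every cell of the DKO embryos: exon removal in Vps13a was driven by β-actin-Cre, and the parents were Vps13a+/-/Vps13c-/-, so WT embryos came from other litters and no library had a single deletion. The labels do not say that each library was a separate embryo, so the p-values measure the spread between libraries.

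Eukaryotic DNA replication begins in G1, when the origin recognition complex, Cdc6 and Cdt1 load MCM2-7 rings onto DNA, and proceeds in S phase, when Cdc45 and GINS join the ring to form the active helicase. Polymerase alpha-primase then starts each strand, the clamp loader places the PCNA ring, and the delta and epsilon polymerases extend the strands while ribonucleotide reductase, thymidylate synthase and thymidine kinase provide precursors. Transcription of many of these genes is under E2F transcription factors and rises around the entry into S phase. In the fetal liver, the step from S0 to the next erythroid stage is known to be tied to S phase, and the cyclin-dependent kinase inhibitor encoded by Cdkn1c is known to hold S0 cells back in the cycle.

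Total counts were 42114489 to 50886469 in the WT and 36981439 to 42587815 in the DKO libraries, and 17378 genes passed the low-count filter. Vps13a was lower in every DKO library (log2 fold change -1.29, edgeR quasi-likelihood test, Benjamini-Hochberg adjusted p = 0.00247), and Vps13c averaged 583 normalized counts in the WT and 816 in the DKO libraries (adjusted p = 0.182), so its counts did not mark the genotype. The transcript Xist, made from the inactive X chromosome, was at 0 to 30.1 normalized counts in WT libraries and at 27043, 18029, 62.3 and 21393 in DKO libraries 1 to 4, while the Y-linked Ddx3y was at 2911 to 3354 in WT, at 2516 in DKO library 3 and at no more than 41.0 in the other DKO libraries. Sex and genotype therefore cannot be told apart, except through DKO library 3. The erythroid markers Klf1 (mean of 12312 normalized counts in WT libraries and 12795 in DKO) and Gata1 (8818 and 8235), named after their values were seen, were well detected in both groups. The erythroid Alas2 was lower in level (515 and 462). The hepatoblast transcripts Afp (305522 and 239876) and Alb (98033 and 47508) were far more abundant than any of these. Alas2, Afp and Alb were also named after their values were seen. All values below are normalized counts, that is counts scaled by TMM (the trimmed mean of M values, a scaling that assumes most genes do not differ) to a common library size, and all fold changes are DKO minus WT on the log2 scale with their standard error (SE). Genes with an adjusted p under 0.05, over all 17378 genes, are referred to as called.

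Of the 35 genes, 30 had a log2 fold change below 0 and 5 above, and with upper-quartile scaling, which moved the median of all genes from 0.03 to 0.14, 4 of the 30 (Cdt1, Gins1, Prim1 and Tyms) were not below 0. The test called 15 lower in DKO, or 42.9% of the 35, against 10.8% of all genes tested, and called 0 higher, against 10.7% of all genes. At an unadjusted p under 0.05, edgeR counted 21 lower and 0 higher. The share of all genes under that unadjusted limit was not counted, here or for the lists below. DESeq2 called 19 of the 35 lower, beside 8.69% of the 30390 genes in that fit. These are abundant transcripts, with a median level above 92.2% of the genes tested, and abundant genes were called more often: among the 6988 genes at least as abundant as the least abundant of the 35 (Orc1, mean of 1030 normalized counts), 20.3% were called lower. The falls were modest in size. The median log2 fold change was -0.28 over the 35, with a range from -0.71 to 0.14, beside 0.03 over all genes, and 0 of the 35 passed a log2 fold change of -1 as well, which 2.43% of all genes did. For 18 of the 35 (51.4%), every DKO library lay below every WT library, against 14.6% of all genes. In bulk libraries, fewer cells with a transcript and less of it per cell cannot be told apart.

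**Figure D1:**
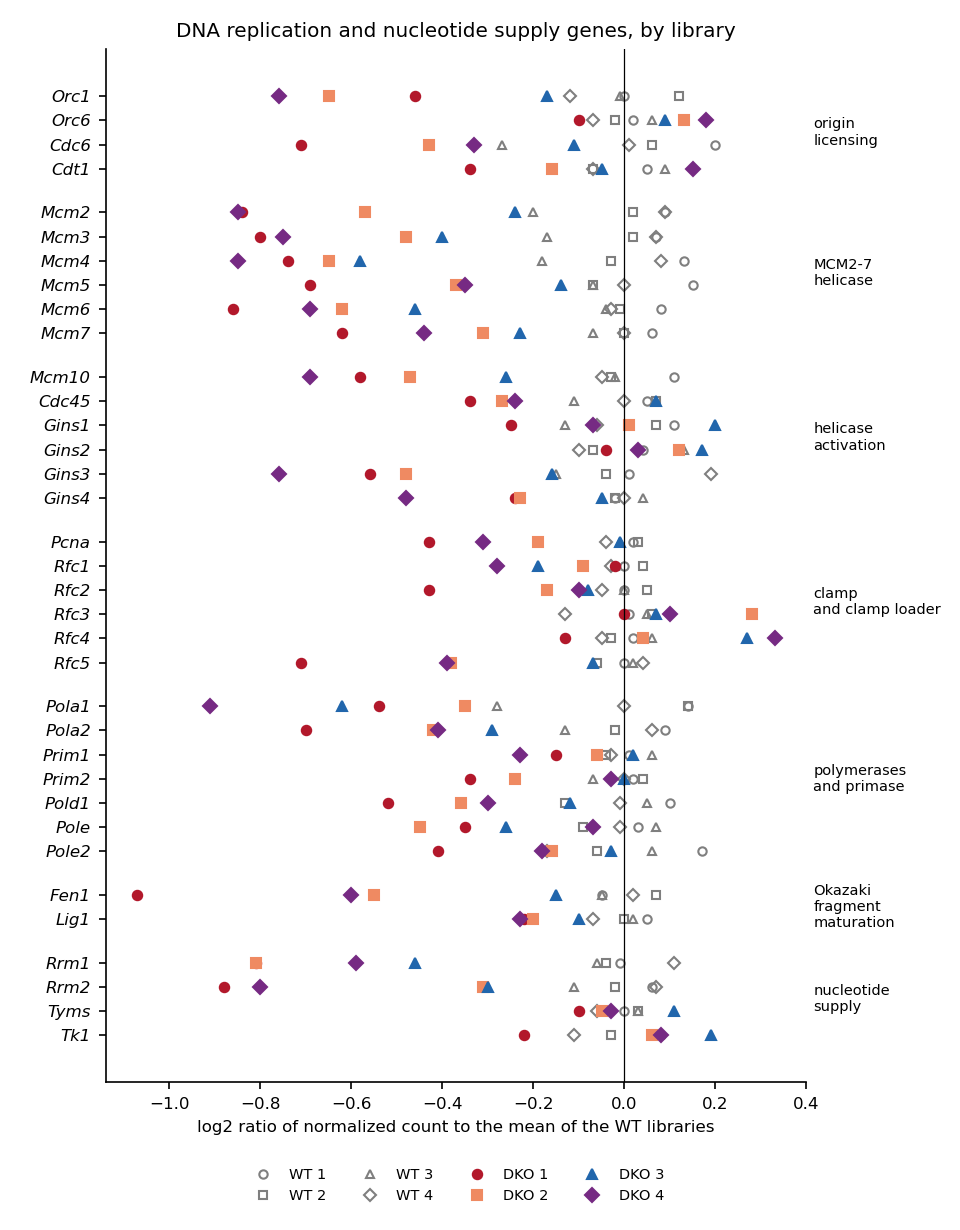
Log2 ratio of the normalized count in each library to the mean of the 4 WT libraries, for the 35 genes grouped by role. Open grey symbols are WT libraries and filled symbols DKO libraries; the DKO symbols of the MCM2-7 genes lie left of all WT symbols, DKO library 3 (blue triangles) lies nearest to WT for most genes, and those of Gins1, Gins2, Rfc3, Rfc4, Tyms and Tk1 scatter around 0.

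The DKO libraries were unequal. The median log2 ratio of the 35 genes to the WT mean was -0.43, -0.31, -0.11 and -0.31 in DKO libraries 1 to 4, and between -0.02 and 0.05 in the WT libraries, while the median over all genes was between -0.01 and 0.04 in every library. DKO library 1 was the lowest of the 4 for 24 of the 35 genes and DKO library 4 for 10, and DKO library 3 was the highest for 28. The MCM2-7 median was -0.77, -0.53, -0.32 and -0.72 in the same libraries. In DKO library 3, which was the DKO library with Ddx3y, 20 of the 35 lay below every WT library and 15 within or above the WT range. Without DKO library 3 the test called 20 of the 35 lower, and without DKO library 1 it called 14.

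The MCM2-7 helicase, the ring that unwinds DNA at the fork and that is loaded in excess onto origins in G1, fell as a whole. All 6 subunits were called lower (median -0.60), and the groups did not overlap for any of the 6. Mcm4 (chr16:15623897-15637400; coordinates here are GRCm38, the mm10 build) had 12755, 11378, 10222 and 12282 normalized counts in WT libraries 1 to 4 and 6977, 7379, 7761 and 6449 in DKO libraries 1 to 4. The DKO level of Mcm4 was 61.3% of WT (-0.71 ± 0.09, SE, n = 4 and 4, edgeR adjusted p = 0.00263; exact two-sided permutation test p = 0.0286, the smallest that 4 against 4 libraries allow). For Mcm6 (chr1:128331590-128359664) the counts were 24828, 23285, 22798 and 23037 in WT and 12894, 15238, 17107 and 14545 in DKO, a fall to 63.6% (-0.65 ± 0.09, edgeR adjusted p = 0.00308). The highest DKO library of Mcm6 was thus clear of the lowest WT library. Mcm3 (chr1:20802968-20820312) counted 19104, 18459, 16214 and 19142 in WT and 10459, 13012, 13786 and 10834 in DKO, 66.0% of WT (-0.60 ± 0.11, edgeR adjusted p = 0.00652). In Mcm2 (chr6:88883474-88898780) the WT libraries held 16944, 16179, 13862 and 16990 counts and the DKO libraries 8897, 10756, 13540 and 8837 (-0.61 ± 0.14, edgeR adjusted p = 0.0169). Here DKO library 3 came close to WT library 3, and the other DKO libraries were far below.

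Mcm5 and Mcm7 had the smaller fold changes of the ring, with intervals that overlap those of the other subunits. Mcm5 (chr8:75109569-75128439) counted 18867, 16197, 16224 and 17090 in WT and 10602, 13218, 15493 and 13405 in DKO, 77.1% of WT (-0.38 ± 0.11, edgeR adjusted p = 0.0435). The values of Mcm7 (chr5:138164583-138172422) were 20072, 19293, 18363 and 19225 in WT and 12516, 15475, 16365 and 14154 in DKO, 76.0% of WT (-0.40 ± 0.09, edgeR adjusted p = 0.0161). Leaving out any 1 library kept Mcm3, Mcm4 and Mcm6 called. The call of Mcm2 was lost without WT library 1 or 4 (edgeR adjusted p up to 0.0555), that of Mcm7 without WT library 1 or 2 (up to 0.0585), and that of Mcm5 without DKO library 2 or 4 or any WT library (up to 0.124). With a replicate block, a term for the replicate number in the fit, Mcm2, Mcm5 and Mcm7 were not called (edgeR adjusted p = 0.0554, 0.103 and 0.0546). Correcting for the GC content and length of transcripts also ended the call of Mcm5 (log2 fold change -0.30, edgeR adjusted p = 0.102), as did upper-quartile scaling (-0.27, adjusted p = 0.0986). Mcm7 shares 421 bases with Ap4m1 and 64 with Cops6 on the opposite strand, and whether counting used strand is not given in the sources used here, so reads there could not be separated by gene.

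Promoters of the 35 genes were searched, whether or not the gene was called, for the E2F words TTTGGCGC, TTTCGCGC, TTTCCCGC and TTTGCCGC on both strands, in the RefSeq window from 250 bases before to 50 bases after the start (GRCm38.p6). The table of promoters held 28 of the 35 genes (not Mcm4, Gins1, Gins2, Gins4, Rfc2, Prim2 or Pole), and 13 of these 28 (46.4%) had at least 1 word, against 2.60% of the 27025 genes in the table. A word was present in 8 of the 14 that were called lower and in 5 of the 14 that were not. The CCAAT box, another short element of cell cycle promoters, was present in 17 of the 28 (60.7%) against 41.06% of all genes. The sequences printed are 280 bases, to 30 bases after the start, of 3 genes that fell and of Rfc3, which did not, with the E2F words in capitals.
Mcm5, chr8:75109259-75109538, plus strand: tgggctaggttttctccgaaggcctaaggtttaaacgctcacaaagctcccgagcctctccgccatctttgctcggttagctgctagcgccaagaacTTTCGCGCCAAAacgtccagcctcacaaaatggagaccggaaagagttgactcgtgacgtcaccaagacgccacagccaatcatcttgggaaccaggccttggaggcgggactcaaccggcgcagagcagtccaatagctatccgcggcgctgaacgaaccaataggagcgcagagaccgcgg
Mcm6, chr1:128359676-128359955, minus strand: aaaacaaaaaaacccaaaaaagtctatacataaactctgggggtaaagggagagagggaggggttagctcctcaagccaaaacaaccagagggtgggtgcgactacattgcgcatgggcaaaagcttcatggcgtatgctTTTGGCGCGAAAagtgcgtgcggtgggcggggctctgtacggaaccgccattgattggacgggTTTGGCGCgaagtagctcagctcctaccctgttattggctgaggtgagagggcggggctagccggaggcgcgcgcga
Pola1, chrX:93632126-93632405, minus strand: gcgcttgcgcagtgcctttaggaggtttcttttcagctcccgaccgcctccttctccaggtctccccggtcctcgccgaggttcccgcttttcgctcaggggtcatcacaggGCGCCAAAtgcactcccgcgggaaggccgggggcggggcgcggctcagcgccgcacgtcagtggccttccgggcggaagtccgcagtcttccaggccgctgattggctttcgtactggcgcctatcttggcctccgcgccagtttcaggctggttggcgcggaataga
Rfc3, chr5:151651179-151651458, minus strand: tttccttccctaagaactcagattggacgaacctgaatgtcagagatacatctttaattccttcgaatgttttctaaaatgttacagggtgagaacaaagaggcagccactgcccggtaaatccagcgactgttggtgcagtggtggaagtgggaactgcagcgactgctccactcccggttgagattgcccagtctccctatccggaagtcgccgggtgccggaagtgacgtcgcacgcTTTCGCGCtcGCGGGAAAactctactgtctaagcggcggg
In Mcm5 a forward and a reverse word overlap, from base -153 to -142 before the start; Mcm6 has such an overlapping pair from -110 to -99 and a single word from -47 to -40. Pola1 has 1 word, from -138 to -131, and Rfc3 has 2, the first ending at -3 and the second starting at base 1. A match is a description of the sequence, and words were thus present both in genes that fell and in genes that were not called.

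Origin licensing genes act before the ring is loaded, and 1 of the 4 was called. Orc1 (chr4:108579423-108614833), the subunit of the origin recognition complex that is turned over in the cycle, had 1203, 1311, 1197 and 1110 normalized counts in WT libraries and 873, 767, 1067 and 708 in DKO, a fall to 70.8% of WT (-0.50 ± 0.14, edgeR adjusted p = 0.0370). No DKO library reached the WT range, although DKO library 3 came near it. The call of Orc1 was lost without DKO library 2 or 4, without any 1 WT library (edgeR adjusted p up to 0.104), with upper-quartile scaling (0.0843) and with the GC and length correction (0.0680). Cdc6, the loading ATPase, had 5899, 5369, 4280 and 5169 counts in WT and 3137, 3825, 4768 and 4103 in DKO (-0.39 ± 0.14, edgeR adjusted p = 0.0753), with DKO library 3 inside the WT range. Without DKO library 3 Cdc6 was called (-0.49, edgeR adjusted p = 0.0329), as it was without WT library 3 (-0.47, adjusted p = 0.0492) and by DESeq2 (adjusted p = 0.0398). Cdt1, its partner in loading, was at 93.8% of WT (95% interval -0.33 to 0.15 on the log2 scale), and Orc6 at 105% (-0.10 to 0.26). DKO values of Cdt1 ran from 4574 to 6409 around a WT range of 5496 to 6154, so the groups overlapped.

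Of the 6 helicase activation genes, 2 were called lower, and without DKO library 3 this count was 4. Mcm10 (chr2:4989714-5012791), which helps to start the assembled helicase, had 5317, 4806, 4842 and 4751 normalized counts in WT libraries and 3301, 3548, 4122 and 3048 in DKO, 71.1% of WT (-0.49 ± 0.10, edgeR adjusted p = 0.0108), and it stayed called when any 1 library was left out. Gins3 (chr8:95633453-95645060) counted 1592, 1539, 1428 and 1810 in WT and 1074, 1134, 1424 and 939 in DKO (-0.48 ± 0.14, edgeR adjusted p = 0.0395). The groups of Gins3 were separated by only 4 counts, between WT library 3 and DKO library 3, and its call was lost when any 1 library other than WT library 3 or DKO library 3 was left out (edgeR adjusted p up to 0.108), with upper-quartile scaling (0.0789) and with the GC and length correction (0.0534). The other 3 GINS subunits, which sit in the same 4-part complex, were not called, and the interval of Gins3 (-0.80 to -0.16) overlaps theirs. Gins1 was at 98.7% of WT (95% interval -0.27 to 0.23) and Gins2 at 105% (-0.12 to 0.26); Gins2 shares 2758 bases with Gse1 on the opposite strand. Gins4 had 3350, 3344, 3501 and 3402 counts in WT and 2872, 2907, 3278 and 2443 in DKO (-0.24 ± 0.09, edgeR adjusted p = 0.0972), with no overlap between the groups. Gins4 was called with the GC and length correction (-0.36, adjusted p = 0.0258) and without DKO library 3 (-0.31, adjusted p = 0.0435). Cdc45, the third part of the active helicase, was at 87.8% of WT (-0.19 ± 0.10, edgeR adjusted p = 0.222), and was called without DKO library 3 (-0.28, adjusted p = 0.0466).

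Within a library, transcripts of the helicase ring were fewer in DKO relative to those of the GINS genes and of the clamp loader. Summed normalized counts of the 6 MCM2-7 genes were 7.86, 7.66, 6.75 and 7.86 times those of the 4 GINS genes in WT and 5.01, 5.47, 5.63 and 5.48 times in DKO. Gins2, at 105% of WT, had the highest counts of the 4 GINS genes. The activation genes Mcm10, which was called lower, and Cdc45 are not in that sum. The ratio of MCM2-7 to the 5 clamp loader genes was 2.60, 2.40, 2.24 and 2.55 in WT and 1.81, 1.90, 1.98 and 1.69 in DKO. Neither ratio overlapped between the groups, and DKO library 3, which was nearest to WT in level, was the highest of the DKO libraries in both ratios and still below every WT library. These ratios need no scaling between libraries; they are given as a description, since the genes were chosen by role with earlier results known.

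None of the 6 genes of the clamp and clamp loader was called, and their median log2 fold change was -0.17. Pcna encodes the ring that holds polymerases on DNA and had 12887, 12971, 12668 and 12381 normalized counts in WT libraries and 9447, 11118, 12648 and 10253 in DKO (-0.23 ± 0.09, edgeR adjusted p = 0.111). DKO library 3 of Pcna was inside the WT range and the other DKO libraries were below it. Without DKO library 3 Pcna was called (-0.30, edgeR adjusted p = 0.0316), as it was with the GC and length correction (-0.31, adjusted p = 0.0372). A copy, Pcna-ps2, had a mean of 132 counts, and how reads were split between the copies is uncertain. Rfc5, a small subunit of the loader, was nearest to the threshold: it had 10173, 9774, 10297 and 10465 counts in WT and 6219, 7825, 9658 and 7781 in DKO (-0.37 ± 0.12, edgeR adjusted p = 0.0532). DKO library 1 was far below the others in Rfc5, and the gene was called with 5 of the 16 alternative settings, among them DESeq2 (adjusted p = 0.0212). Rfc1, the large subunit, and Rfc2 were at 90.5% and 87.6% of WT, with intervals of -0.31 to 0.03 and -0.39 to 0.01. Rfc3 and Rfc4 had means above WT, at 108% and 110% (-0.08 to 0.31 and -0.10 to 0.37). Rfc4 had 6498, 6308, 6680 and 6222 counts in WT and 5854, 6621, 7728 and 8064 in DKO, so DKO libraries lay on both sides of the WT range. It shares 194 bases with the abundant Eif4a2 on the opposite strand.

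Among polymerase and primase genes, 3 of 7 were called, and both that encode the large and the accessory subunit of polymerase alpha were among them. Pola1 (chrX:93304767-93632155), the catalytic subunit, had 4345, 4319, 3246 and 3924 normalized counts in WT libraries and 2709, 3081, 2550 and 2090 in DKO, 65.9% of WT (-0.60 ± 0.14, edgeR adjusted p = 0.0146). It is the only one of the 35 on the X chromosome, and DKO library 3, which had little Xist, was within the range of the other DKO libraries. Pola2 (chr19:5940542-5964202) counted 5834, 5394, 5006 and 5733 in WT and 3383, 4090, 4483 and 4120 in DKO, 73.2% of WT (-0.45 ± 0.10, edgeR adjusted p = 0.0136), and stayed called when any 1 library was left out. The call of Pola1 was lost without WT library 1 or 2 (adjusted p up to 0.0558), and that of Pola2 with a replicate block (edgeR adjusted p = 0.0541). The primase subunits of the same complex, which lay down the RNA primer, were not called: Prim1 was at 93.1% of WT (95% interval -0.27 to 0.07) and Prim2 at 90.3% (-0.36 to 0.06).

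Pold1 (chr7:44532746-44548849), the catalytic subunit of the lagging-strand polymerase delta, had 10189, 8665, 9819 and 9445 normalized counts in WT libraries and 6628, 7397, 8777 and 7708 in DKO (-0.32 ± 0.10, edgeR adjusted p = 0.0435). DKO library 3 reached above WT library 2, so the groups overlapped, and the call was lost when any 1 library other than DKO library 3 was left out (edgeR adjusted p up to 0.119) and with upper-quartile scaling (0.123). Pole, the catalytic subunit of the leading-strand polymerase epsilon, had 2358, 2165, 2422 and 2287 counts in WT and 1805, 1683, 1923 and 2203 in DKO (-0.28 ± 0.10, edgeR adjusted p = 0.0776), and was called by DESeq2 (adjusted p = 0.0393) and without DKO library 4 (-0.35, adjusted p = 0.0316). Its partner Pole2 was at 87.4% of WT (-0.19 ± 0.11, adjusted p = 0.244).

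Okazaki fragments are trimmed by the flap endonuclease Fen1 and sealed by DNA ligase 1. Fen1 (chr19:10199132-10204169) had 11342, 12329, 11352 and 11863 normalized counts in WT libraries and 5568, 8008, 10581 and 7718 in DKO, 68.0% of WT (-0.56 ± 0.16, edgeR adjusted p = 0.0375). DKO library 1 was about as far below DKO library 2 as DKO library 3 was above it, and the call was lost without DKO library 2 or 4, without any 1 WT library (adjusted p up to 0.0938) and with upper-quartile scaling (0.0662). Fen1 overlaps the antisense gene Gm10143 over 3253 bases (mean of 1722 counts) and the abundant Tmem258 over 156, and reads of these could not be separated by gene. Lig1 had 12301, 11829, 12013 and 11341 counts in WT and 10176, 10327, 11050 and 10095 in DKO (-0.19 ± 0.07, edgeR adjusted p = 0.0718). Its groups did not overlap, and it was called by DESeq2 (adjusted p = 0.0118) and on library size without TMM (adjusted p = 0.0479).

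Of the 4 nucleotide supply genes, both reductase subunits were called lower. Ribonucleotide reductase makes deoxynucleotides from ribonucleotides and is built of the large subunit Rrm1, which carries the catalytic and regulatory sites, and the small subunit Rrm2, which carries the radical. Rrm1 (chr7:102441695-102469771) had 18655, 18227, 17974 and 20173 normalized counts in WT libraries and 10715, 10721, 13621 and 12454 in DKO, 63.3% of WT (-0.66 ± 0.10, edgeR adjusted p = 0.00325), and stayed called when any 1 library was left out. Rrm2 (chr12:24708241-24714146) counted 21000, 19806, 18563 and 21049 in WT and 10911, 16191, 16266 and 11526 in DKO, 68.3% of WT (-0.55 ± 0.14, edgeR adjusted p = 0.0229). The DKO libraries of Rrm2 formed a lower pair, 1 and 4, and a higher pair, 2 and 3, which Rrm1 did not: the ratio of Rrm1 to Rrm2 was 0.98, 0.66, 0.84 and 1.08 in DKO and 0.89 to 0.97 in WT. The call of Rrm2 was lost without DKO library 4 or without WT library 1, 2 or 4 (edgeR adjusted p up to 0.0705).

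Tyms, which methylates dUMP to dTMP, had 8911, 9103, 9068 and 8554 normalized counts in WT libraries and 8328, 8594, 9607 and 8707 in DKO. This was 98.9% of WT, with a 95% interval of -0.18 to 0.14 on the log2 scale. Tk1, the salvage kinase of thymidine, had 7531, 6958, 7408 and 6601 counts in WT and 6091, 7423, 8106 and 7535 in DKO, 102% of WT (-0.19 to 0.25). A fall of the size seen in Rrm1 lies outside both intervals.

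Levels between genes can be compared per kilobase of the longest transcript. On that scale the most abundant in WT were Rrm2 (9167 normalized counts per kb), Pcna (8384) and Mcm7 (6495), and the least abundant were Gins3 (632), Orc1 (400) and Pole (322). Within the MCM ring the WT levels ran from 3249 per kb for Mcm4 to 6495 for Mcm7, and the DKO levels from 1990 for Mcm4 to 4938 for Mcm7. Mcm4 was thus the lowest subunit in both groups and had the most negative fold change of the ring. Across the 35 genes the log2 fold change had a Spearman correlation of -0.39 with transcript length, -0.31 with mean count and -0.08 with both level per kb and GC content, as a description over genes that share the same 8 libraries. With the GC and length correction, 14 of the 35 were called lower and the median was again -0.28.

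Other genes of the same processes were taken from lists drawn up by function. Of 43 other replication genes, 6 were called lower and 2 higher, beside 10.8% and 10.7% of all genes, and the median log2 fold change was -0.13. The count of higher calls was 1 without DKO library 2 or 4 or any 1 WT library, and 4 without DKO library 1 or with upper-quartile scaling. Rpa1, the large subunit of the single-strand binding protein, fell to 63.0% of WT (-0.67 ± 0.12, edgeR adjusted p = 0.00660), and Chtf8, a subunit of an alternative clamp loader, to 60.8% (-0.72 ± 0.10, adjusted p = 0.00310). Dbf4, the activator of the kinase that fires origins, rose to 144% (0.53 ± 0.08, edgeR adjusted p = 0.00376), and Recql4, a helicase of initiation, to 146% (0.55 ± 0.15, adjusted p = 0.0311). The values of Dbf4 were 1563 to 1695 in WT and 2218 to 2470 in DKO, with a gap between the groups wider than the spread within either.

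Of 28 other nucleotide supply genes, 7 were called lower and 2 higher (median -0.23), beside 10.8% and 10.7% of all genes. The higher calls were thus no more than the share of all genes. Among genes at least as abundant as Orc1 (mean of 1030 normalized counts), 20.3% were called lower. The lower calls were above the share of all genes and nearer to that of the abundant genes. Ctps2, a synthase of CTP, fell to 62.7% of WT (edgeR adjusted p = 0.00670) and Paics, of purine synthesis, to 77.8% (adjusted p = 0.0127), while the kinase genes Dtymk and Nme2 rose to 121% (adjusted p = 0.0369) and 125% (adjusted p = 0.0448). The count of higher calls was 0 with the GC and length correction, with no low-count filter and without DKO library 2 or 3 or WT library 1, 2 or 4, and 1 without DKO library 4 or WT library 3, and the count of lower calls was 2 without WT library 1, 3 without WT library 2 or 4 and 4 with upper-quartile scaling.

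Of 22 other S phase genes, 9 were called lower and 0 higher (median -0.33), beside 10.8% and 10.7% of all genes. At an unadjusted p under 0.05, edgeR counted 16 lower and 1 higher. DESeq2 called 15 lower, beside 8.69% of the genes in that fit. Dnmt1, which copies methylation onto new strands, fell to 63.3% of WT (-0.66 ± 0.10, edgeR adjusted p = 0.00357). Without DKO library 3 the count was 14. Of 12 replication checkpoint genes, 3 were called lower: Hus1 and Rad9a, parts of the checkpoint clamp, at 68.7% and 77.3% of WT (edgeR adjusted p = 0.0108 and 0.0490), and the kinase gene Atm at 72.7% (adjusted p = 0.0307). The checkpoint count was 1 without DKO library 2 or 4 or WT library 1, 2 or 4.

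**Figure D2:**
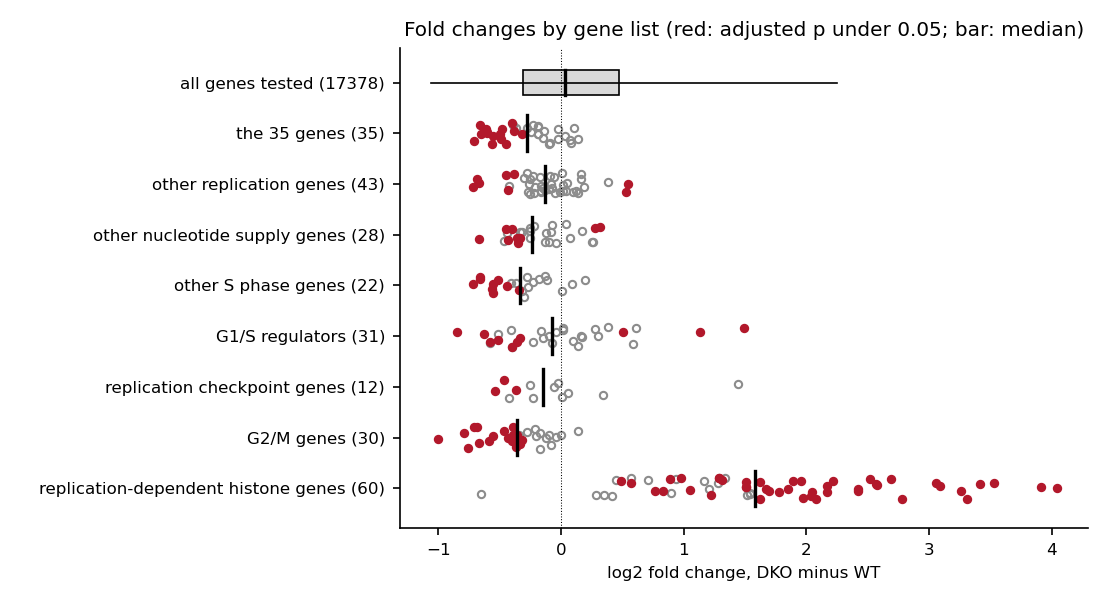
Log2 fold changes (DKO minus WT) of the 35 genes and of other gene lists, with 1 point per gene, red where the adjusted p was under 0.05, and a black bar at the median. The box and line for all genes tested span the 25th to 75th and the 5th to 95th percentiles; the median of the 35 genes is -0.28, that of the G2/M genes -0.36 and that of the histone genes 1.58.

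Of 31 G1/S regulators, which govern the entry into S phase, 7 were called lower and 3 higher (median -0.07), beside 10.8% and 10.7% of all genes. Among genes at least as abundant as the least abundant of the 35, a level that not every regulator reached, 20.3% were called lower. The higher calls were near the share of all genes. The lower calls were above that share and near that of the abundant genes. Myc, a driver of growth and G1 progression, had 30805, 27523, 27282 and 28840 normalized counts in WT libraries and 16644, 18392, 20093 and 18617 in DKO, 64.4% of WT (-0.63 ± 0.08, edgeR adjusted p = 0.00227). E2f8, an E2F repressor that is itself an E2F target, fell to 55.3% (-0.85 ± 0.13, adjusted p = 0.00346). The activator E2f1, named after its values were seen, had 734 counts in WT and 903 in DKO (adjusted p = 0.205). Cyclin D2 (Ccnd2) rose to 142% (0.51 ± 0.09, edgeR adjusted p = 0.00560). The count of lower calls was 3 without WT library 1, 2 or 4, and 4 without DKO library 4, with upper-quartile scaling or with the GC and length correction, and that of higher calls 5 without DKO library 3.

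Of the 5 inhibitors of cyclin-dependent kinases in that list, 2 were called higher, and Cdkn1b (log2 fold change 0.59), Cdkn2c (0.10) and Cdkn2d (0.28) were not called. Cdkn1c, the inhibitor that restrains S0 cells, had 1646, 1718, 2267 and 2074 normalized counts in WT libraries and 9604, 3522, 3400 and 5176 in DKO (1.49 ± 0.31, edgeR adjusted p = 0.0114). Cdkn1a, a target of p53, had 760, 817, 732 and 629 in WT and 1041, 1368, 1692 and 2323 in DKO (1.13 ± 0.22, edgeR adjusted p = 0.00953). The groups did not overlap for either. Cdkn1c was highest in DKO library 1, where 24 of the 35 replication genes had their lowest DKO value and Cdkn1a also had its lowest. It was at similar levels in DKO libraries 2 and 3, where the median log2 ratio of the 35 was -0.31 and -0.11. DKO library 1 also had the highest sum of mesenchyme markers. The part of mesenchyme in the level of Cdkn1c was not tested, nor was any link of either inhibitor to the replication genes. The proliferation marker Mki67 had 12398 counts in WT and 11590 in DKO (95% interval -0.26 to 0.07 on the log2 scale, edgeR adjusted p = 0.383).

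Genes of G2 and mitosis were lower too. Of 30, 18 were called lower and 0 higher, beside 10.8% and 10.7% of all genes. The median stood at -0.36 (20 lower and 0 higher at an unadjusted p under 0.05). Bub1b, of the spindle checkpoint, fell to 59.3% (-0.76 ± 0.10, edgeR adjusted p = 0.00243), and Kif11, a spindle motor, to 62.4% (-0.68 ± 0.11, adjusted p = 0.00531). The count was 10 without WT library 1 or 4, and 11 without WT library 2. In the per-library medians the G2/M genes stood at -0.50, -0.33, -0.30 and -0.42 in DKO libraries 1 to 4, so DKO library 3 was the highest there as well.

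Replication-dependent histone genes, whose transcripts accumulate in S phase and mostly end in a stem-loop without a poly(A) tail, went the other way. Of 60 tested, 44 were called higher and 0 lower, beside 10.7% and 10.8% of all genes. Their median fold change stood at 1.58 on the log2 scale (52 higher and 0 lower at an unadjusted p under 0.05). Hist1h3f had 19.1 to 25.4 normalized counts in WT libraries and 349 to 394 in DKO (4.04 ± 0.25, edgeR adjusted p = 5.06e-05), and Hist1h2ac 223 to 347 in WT and 2320 to 2725 in DKO (3.26 ± 0.16, adjusted p = 2.57e-05). The summed counts of these genes were 21001 to 23220 in WT and 45530 to 52437 in DKO. The libraries were made from poly(A) RNA, which holds a small share of these transcripts. With the GC and length correction 29 were called higher. Slbp, which binds the stem-loop and was named after its values were seen, was at 82.5% of WT (-0.28 ± 0.11, edgeR adjusted p = 0.0971).

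**Figure D3:**
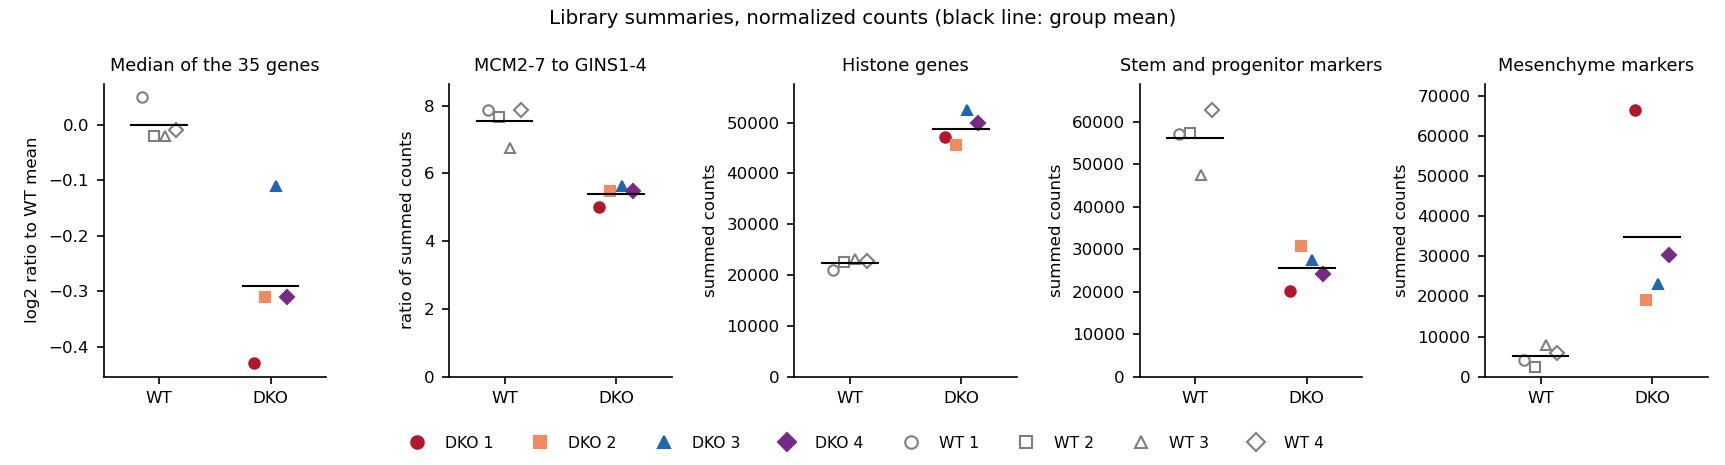
Values of the 8 libraries for 5 summaries: the median log2 ratio of the 35 genes to the WT mean, the ratio of summed MCM2-7 to summed GINS counts, and the summed normalized counts of histone genes, stem and progenitor markers and mesenchyme markers. Each symbol is 1 library and the black lines are group means; the groups do not overlap in any panel, and DKO library 1 is lowest in the first and highest in the last.

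Markers of the cell types that the sorted population could hold were counted beside these results. Over all genes tested, 10.8% were called lower and 10.7% higher. Stem and progenitor markers were lower: 7 of 12 were called, and their summed counts were 47441 to 62725 in WT and 20203 to 30786 in DKO, with Kit, the stem cell factor receptor, at 46.4% of WT (edgeR adjusted p = 0.00239). Granulocyte markers had 4 of 9 called lower and sums of 103781 to 134870 in WT and 5400 to 45928 in DKO, with Ngp at 0 in the 4 DKO libraries. Of these 9, 7 had a log2 fold change below 0 and 2 above, up to 1.45. Most of the WT sum was Mpo (mean of 108147 in WT and 22998 in DKO). Mesenchyme markers had 11 of 12 called higher, with sums of 2372 to 7782 in WT and 19043 to 66362 in DKO. Endothelial markers had 3 of 10 called lower (6613 to 8147 against 3724 to 5158). Macrophage markers had 1 of 11 called lower, no more than the share of all genes. Their sums, with Vcam1 the most abundant, were 5072 to 7589 against 1460 to 4540. Of these 11, 8 had a log2 fold change below 0 and 3 above, up to 0.78. Timd4 was at 0 in the 4 DKO libraries and detected in 1 WT library. Hepatoblast markers had 0 of 14 called by edgeR (5 lower and 0 higher at an unadjusted p under 0.05), with sums of 715884 to 970845 against 216083 to 822795, and were lowest in DKO library 3. The 13 erythroid markers tested had 0 called lower and 2 called higher, among them Epor (138% of WT, edgeR adjusted p = 0.0123), with sums of 68014 to 75670 in WT and 55603 to 94137 in DKO. Megakaryocyte markers had 0 of 10 called by edgeR (1 lower at an unadjusted p under 0.05), with sums of 56418 to 65922 and 40372 to 123223. The part of these cell types in the lower replication transcripts was not tested.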

How the data were processed

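Poly(A) RNA of sorted S0 cells (live, negative for non-erythroid lineage markers, CD71 and Ter119) was sequenced after template-switching library preparation. The authors trimmed reads with fastp 0.21.0, mapped them to mm10 with HISAT2 2.2.1, removed alignments with a quality below 20, and produced gene counts with StringTie 1.3.3b and its counting script, per the submitters' processing notes and the methods; the deposited values are raw, unnormalized counts, 1 column per library. The strand setting is not given in the sources used here.

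Identifiers (52636, versions dropped) were matched to GENCODE M21 (GRCm38), and 52403 had a symbol. Genes passing filterByExpr (17378) were tested with edgeR 4.0.16 (TMM, robust quasi-likelihood fit, 4 WT against 4 DKO libraries, Benjamini-Hochberg adjustment over all genes tested) in R 4.3.3, checked beforehand on simulated counts. Calls required an adjusted p under 0.05; the study's added limit of 1 on the log2 scale and DESeq2 1.42.0, which the authors used, were alternatives. Per-library ratios used a pseudocount of 1. An exact permutation test of 4 against 4 libraries has 70 arrangements and a smallest p of 0.0286. No libraries were duplicates (chi-square per gene of at least 18.3). The 35 genes, the other lists and the markers were chosen with earlier results of these data known, so no list was tested as a set. The text names all 35 genes; of each other list, the 2 genes with the smallest p in each direction among those called (all where 5 or fewer were called); and Vps13a, Vps13c, Xist, Ddx3y, Cdkn1a, Cdkn1c and Mki67. Other names were chosen after their values were seen. Some genes that this rule would name are not reported here. The other alternatives were library size without TMM, upper-quartile scaling, 2 other low-count filters, a GC and length correction, a replicate block, removal of hemoglobin, mitochondrial, histone, snRNA and snoRNA genes, and leaving out each library in turn.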

Additional observations from a re-analysis of the deposited data

Results flagged for a closer look

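In Mcm10, WT library 1 had 5317 normalized counts and the other WT libraries 4751 to 4842, a gap wide enough, against the group's range, for Dixon's test to set WT library 1 apart. The total count of WT library 1 was 42114489, and those of the other WT libraries were 50132020 to 50886469. These were 2 flags among 72 groups of 4 libraries, and chance flags about 1 in 20. Without WT library 1, Mcm10 was again called lower, and 6 of the 35 genes were, beside 4.96% of all genes.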

How the results depend on the processing

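With 15 of the 35 genes called lower and a median log2 fold change of -0.28, the alternatives gave 19 (DESeq2), 17 (library size without TMM), 16 (at least 10 counts in every library), 15 (no low-count filter), 15 (hemoglobin, mitochondrial, histone, snRNA and snoRNA genes removed), 14 (GC and length correction) and 10 (upper-quartile scaling); all 15 were called again in the first 5 of these, 12 of the 15 with the GC and length correction and 10 with upper-quartile scaling. Leaving out 1 library gave 6 to 20 lower calls (6, 7, 12 and 8 without WT libraries 1 to 4; 14, 10, 20 and 10 without DKO libraries 1 to 4), medians of -0.32 to -0.25 and 0 higher calls. Among all genes, 10.8% were called lower with every library, and 4.96%, 5.85%, 8.75% and 5.31% without WT libraries 1 to 4. Without DKO libraries 1 to 4 these shares were 11.3%, 9.47%, 11.1% and 8.48%. The share of all genes was 8.69% with DESeq2, 11.6% on library size without TMM and 13.0% with at least 10 counts in every library. It was 5.67% with no low-count filter and 10.4% with hemoglobin, mitochondrial, histone, snRNA and snoRNA genes removed. With the GC and length correction it was 9.32%, and with upper-quartile scaling 7.15%. Of 60 histone genes, 29 were called higher with the GC and length correction against 44. Requiring a log2 fold change beyond 1 as well left 0 lower. Same-numbered libraries did not deviate together more than others (correlations of -0.10 to 0.05, and -0.12 to 0.12 between different numbers). The replicate numbers are those of the sample titles, and most DKO libraries carry another number in their library name. WT embryos came from other litters, so the numbers do not mark WT and DKO littermates. Whether they mark any other pairing cannot be told from these values. A replicate block gave 6 lower calls (Mcm3, Mcm4, Mcm6, Mcm10, Pola1 and Rrm1), with 1083 genes called lower among all tested against 1878. It gave 2 lower and 0 higher calls among 28 other nucleotide supply genes (7 and 2 without it). Lower calls with it were 3 among G1/S regulators (7), 10 among G2/M genes (18) and 1 among checkpoint genes (3). Upper-quartile scaling moved the median of all genes to 0.14, that of the 35 to -0.17, and the share of lower calls among all calls from 50.1% to 33.3%. Reversed values, none called, were 0.01 for Cdt1, 0.09 for Gins1, 0.00 for Prim1 and 0.09 for Tyms with upper-quartile scaling, -0.01 for Orc6 and 0.09 for Tyms with the GC and length correction, and, with 1 library left out, some values in the ranges of -0.10 to 0.05 for Gins1, -0.06 to 0.01 for Tyms and -0.02 to 0.11 for Tk1. The cause of these changes was not tested. The least abundant of the 35 had a mean of 1030 normalized counts, and what limits the calls was not tested.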
